A study of Mus musculus with 34 samples.

Results

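Distal acetylated regions of the mouse embryonic limb were chosen by 2 properties of deposited peak lists. A region had to be in the H3K27ac list of limb at embryonic day 11.5, and it had to share no base with an H3K4me3 region of limb or forebrain. The rule kept 5480 of 17188 limb H3K27ac regions, or 31.9%, out of 354733 regions in the 30 lists used. The 3 lists that made the choice (limb H3K27ac, limb H3K4me3 and forebrain H3K4me3) are described below and support nothing. Everything else, namely H3K4me1, H3K27me3, the FLAG lists, the control lists and the distance to genes, played no part in the choice. The distance to genes is still tied to the rule, since H3K4me3 marks gene starts.

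H3K27ac is a histone acetylation mark found at active gene starts and active enhancers, and H3K4me3 marks gene starts. Removing regions with H3K4me3 therefore enriches for enhancers, which are regulatory stretches that act on a gene from a distance. H3K4me1 marks enhancers whether or not they are acetylated, and H3K27me3 is laid down by Polycomb repressive complexes at silenced developmental genes. At this stage the limb bud is a mass of mesenchyme under an ectodermal ridge, patterned by SHH, FGF, BMP and WNT signals and by T-box and HOX factors. SMARCA4 is the ATPase, and SMARCC2 a core subunit, of the SWI/SNF remodelling complex. EP300 is an acetyltransferase that can deposit H3K27ac, and NCOA1 and NCOA2 are coactivators of nuclear receptors.

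The histone marks and their inputs came from limb and forebrain of CD1 embryos at embryonic day 11.5, pooled from about 150 embryos of both sexes. The FLAG immunoprecipitations came from 129/C57BL/6 embryos of the same day, pooled from about 150 or 300 embryos, or from embryonic stem cells (ESC). They were SMARCA4 in limb, face, heart, neural tube, ESC and the 3 brain parts (forebrain, midbrain and hindbrain), SMARCC2 in face and hindbrain, EP300 in face and ESC, and NCOA1 and NCOA2 in hindbrain. The labels name a SMARCA4/FLAG knock-in genotype on all FLAG samples, those of the other proteins included. The 6 FLAG controls used belong to EP300 face, NCOA1, NCOA2, SMARCA4 midbrain and both SMARCC2 samples, and the labels call them input controls. Limb SMARCA4 and limb H3K27ac therefore differ in strain as well as in target. H3K27ac was mapped in limb and not in forebrain in the lists used here, so whether the acetylation was specific to limb was not tested. Each list is 1 library, so no comparison has a replicate check and no p-value was computed. Intervals in parentheses are exact (Clopper-Pearson) 95% intervals of a share and cover counting error only. All positions are in mm9. Lists ran from 495 regions (forebrain input) to 58181 (limb H3K4me1), and library depth is unknown.

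2 sets of regions served for comparison. The first was the 11708 limb H3K27ac regions that did overlap H3K4me3, called acetylated H3K4me3 regions here. The second was 37053 limb H3K4me1 regions with neither H3K27ac nor H3K4me3, called unacetylated H3K4me1 regions. Of the acetylated H3K4me3 regions, 9938 overlapped H3K4me3 of both tissues, 1605 that of limb alone and 165 that of forebrain alone.

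Distal acetylated regions were narrow and stood low in the authors' list. Their median width was 806 bp (quartiles 624 and 1133 bp, range 272 to 13642 bp), against 1376 bp for acetylated H3K4me3 regions and 1177 bp for unacetylated H3K4me1 regions. The list numbers its regions by rank, and what the rank was computed from is not given in the sources used here. Their median rank was 13684.5 of 17188, against 5984.5 for acetylated H3K4me3 regions. With the list cut into 10 bins by rank, 12 of 1718 regions were distal in the best bin (0.699%), 15.2% in bin 5, and 1431 of 1719 (83.2%) in the last bin. The better ranked part of the list is thus nearly all H3K4me3 regions. The gap from a distal region to the nearest H3K4me3 region had a median of 20797 bp (quartiles 7680 and 50639 bp) over 5479 regions, and the remaining 1 has no H3K4me3 region on its sequence. Just inside the rule, 83 regions lay within 500 bp of H3K4me3, with a median width of 849 bp, and 79.5% of them overlapped limb H3K4me1. Just outside it, 218 regions overlapped H3K4me3 by 500 bp or less, with a median width of 561 bp, and 85.8% of them overlapped limb H3K4me1.

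A small part of the regions lay at gene starts although they held no H3K4me3. The deposited tables give a distance from each peak to its nearest gene but no gene coordinates, so the point from which distances were measured was worked out where at least 2 peaks agreed on it. Of 16001 such gene points, 73.5% had H3K4me3 within 1 kb. In 178 distal acetylated regions (3.25%, 2.80 to 3.75%) the midpoint was within 1 kb of a gene point. They included 8 of the 10 regions of best rank. The sequences below are those of 3 gene starts of this kind, shown because a well ranked distal acetylated region that was also in the limb SMARCA4 list lay at each. The genes are Pcbp1, which encodes a poly(C)-binding RNA-binding protein, Frat2, a GSK3-binding activator of WNT signalling, and Rbm15, an RNA-binding protein of the m6A writer complex. They are the 3 best ranked genes of this kind with exactly 1 entry in the promoter table. Each run is 250 bases before the start annotated by RefSeq in GRCm38.p6, 5′ to 3′ on the minus strand. Capitals mark CCAAT, the box bound by NF-Y, or its reverse complement ATTGG.
Pcbp1 (chr6:86526190-86526439): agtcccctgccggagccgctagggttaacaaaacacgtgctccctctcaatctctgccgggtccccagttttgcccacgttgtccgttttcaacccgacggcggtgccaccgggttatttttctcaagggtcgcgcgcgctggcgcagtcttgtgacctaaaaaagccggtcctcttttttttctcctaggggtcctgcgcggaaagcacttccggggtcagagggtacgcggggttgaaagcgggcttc
Frat2 (chr19:41848133-41848382): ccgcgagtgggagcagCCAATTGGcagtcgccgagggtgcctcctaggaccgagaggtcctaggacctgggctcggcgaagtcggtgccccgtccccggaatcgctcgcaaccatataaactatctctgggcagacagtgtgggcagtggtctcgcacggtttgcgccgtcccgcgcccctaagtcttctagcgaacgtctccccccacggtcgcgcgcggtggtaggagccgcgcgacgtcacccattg
Rbm15 (chr3:107333290-107333539): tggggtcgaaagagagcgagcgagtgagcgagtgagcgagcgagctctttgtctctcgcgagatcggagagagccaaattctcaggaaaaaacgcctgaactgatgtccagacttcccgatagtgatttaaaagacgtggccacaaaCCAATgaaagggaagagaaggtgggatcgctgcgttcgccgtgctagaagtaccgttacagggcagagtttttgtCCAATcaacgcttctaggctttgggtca

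In Frat2 the 2 CCAAT matches, 1 per strand, overlap each other, and in Rbm15 both lie on the printed strand. The Pcbp1 run holds none. CCAAT on either strand was in 33.8% of the 32851 promoters of the table, TATAAA in 12.4% (1 match in Frat2) and GGGCGG in 32.7% (no match in these 3). The runs hold 22, 29 and 18 CG dinucleotides in Pcbp1, Frat2 and Rbm15. In mm9 the Pcbp1 region was chr6:86473303-86477810 (rank 18, 603 bp from the gene point, in 7 FLAG lists). The Frat2 region was chr19:41921765-41923275 (rank 709, 103 bp from the gene point, in 1 FLAG list, and over limb H3K27me3). The Rbm15 region was chr3:107134862-107137632 (rank 1048, 39 bp from the gene point, in 6 FLAG lists). Sequences of the distal regions themselves were not used here, since no mm9 genome was at hand.

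H3K4me1 of the same tissue covered most distal acetylated regions, but a sizeable part held none. Limb H3K4me1 overlapped 3960 of 5480 (72.3%, 71.1 to 73.5%), against 82.6% of acetylated H3K4me3 regions. Forebrain H3K4me1 overlapped 1810 (33.0%, 31.8 to 34.3%), against 72.0% of acetylated H3K4me3 regions and 24.3% (23.9 to 24.8%) of unacetylated H3K4me1 regions. Limb H3K4me1 covers 4.45% of the chromosome span in the files and forebrain H3K4me1 2.48%. In pooled tissue, fewer cells with a mark and less of it per cell cannot be told apart.

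The combination of both tissues split the regions into 4 sets. H3K4me1 was in limb alone at 2355 regions (43.0%), in both tissues at 1605 (29.3%), in forebrain alone at 205 (3.74%) and in neither at 1315 (24.0%). Regions with H3K4me1 in both tissues were the widest and best ranked, with a median width of 967 bp and a median rank of 12283, against 827 bp and 13571 for limb alone. Regions with H3K4me1 in neither had a median width of 654 bp and a median rank of 15246. Median distances to a gene point were 29274 bp for both tissues, 29791 bp for limb alone and 25152 bp for neither.

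Polycomb marking was rarer on distal acetylated regions than in either comparison set. Limb H3K27me3 overlapped 93 of them (1.70%, 1.37 to 2.07%), against 14.6% of acetylated H3K4me3 regions and 8.14% (7.87 to 8.42%) of unacetylated H3K4me1 regions. Forebrain H3K27me3 overlapped 60 (1.09%), against 7.40% and 3.07%. Limb H3K27me3 covers 1.73% of the chromosome span in the files and forebrain H3K27me3 0.723%. Counted at the midpoints of distal acetylated regions, limb H3K27me3 was on 1.30% and forebrain H3K27me3 on 0.47%. The low shares are thus low against the comparison sets, and a depletion against the span was not tested. With a fixed window of 1 kb at each midpoint, which removes the difference in width, limb H3K27me3 gave 1.75%, 13.5% and 7.65% in the same order of classes. Both H3K27me3 lists met on 12 of the 93 regions.

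Around limb transcription factor genes that difference was not seen. Of 36 distal acetylated regions within 100 kb of a placed limb patterning or HOX gene, 9 overlapped limb H3K27me3 (25%, 12.1 to 42.2%), against 67 of 281 unacetylated H3K4me1 regions there (23.8%, 19.0 to 29.3%). The 9 lay near Tbx3, Tbx15, Irx5, Msx1 and Alx4 and in the HOXA, HOXC and HOXD clusters. Msx1, a homeobox gene of the limb mesenchyme, had chr5:38207805-38210016 at 6.91 kb, which was over limb H3K27me3 and in the limb and face SMARCA4 lists. The widest of all distal regions was chr2:74509895-74523536, 13642 bp wide and of rank 900, at 19.1 kb from Hoxd9. It was over limb H3K27me3, over H3K4me1 of both tissues, and in the limb and face SMARCA4 lists. Hoxd10, Hoxd11, Hoxd12 and Hoxd13 have no gene point here, so a nearer gene start of that cluster would not be seen. The marks were mapped in pooled tissue by separate immunoprecipitations, so overlap on 1 chromatin fibre and overlap from different cells cannot be told apart.

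The SMARCA4 list of face overlapped far more distal acetylated regions than that of limb, but it is also the longer list. It has 35099 peaks, against 5251 in limb, and counted per peak the order turned, as given below. The face list held 1723 of the 5480 regions (31.4%, 30.2 to 32.7%) and the limb list 131 (2.39%, 2.002 to 2.83%). Where 50% or more of a region had to be covered, face held 15.04% and limb 2.17%, and in the better ranked 50% of the H3K27ac list face held 65.6% and limb 13.5%. Heart held 554 (10.1%), neural tube 322 (5.88%), forebrain 269 (4.91%), ESC 140 (2.55%), hindbrain 135 (2.46%) and midbrain 97 (1.77%). SMARCC2 held 825 in face (15.1%, 14.1 to 16.0%) and 10 in hindbrain (0.182%). EP300 held 14 in face (0.256%) and 127 in ESC (2.32%), NCOA2 held 20 (0.365%) and NCOA1 held 6 (0.109%). In total 2526 regions (46.1%) were in at least 1 of the 14 FLAG lists and 2954 (53.9%) in none.

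The input controls give the background of these shares. The EP300 face control held 607 regions (11.1%, 10.3 to 11.9%), the SMARCA4 midbrain control 372 (6.79%), the NCOA2 control 95 (1.73%), the NCOA1 control 28 (0.511%), the SMARCC2 face control 15 (0.274%) and the SMARCC2 hindbrain control 10 (0.182%). SMARCC2 face, at 15.1%, stood above its own control, at 0.274%. SMARCA4 midbrain, at 1.77%, and EP300 face, at 0.256%, stood below theirs, at 6.79% and 11.1%. NCOA2, at 0.365%, and NCOA1, at 0.11%, also stood below theirs, at 1.73% and 0.511%. SMARCC2 hindbrain equalled its control, at 0.182%. Lists differ in length here, with 1513 peaks for SMARCA4 midbrain and 19772 for its control, and 3589 for EP300 face and 28895 for its control. Counted per peak without H3K4me3 the midbrain order turned, at 15.9% of the SMARCA4 peaks and 4.83% of the control peaks, and EP300 face stayed lower, at 2.19% and 3.67%. Per such peak NCOA2 turned too, at 10.5% and 4.10%. NCOA1, at 0.965% and 1.86%, and SMARCC2 hindbrain, at 0.461% and 2.09%, were lower than their controls. Among the FLAG lists, those of SMARCA4 face and SMARCC2 face exceeded the highest control share. SMARCA4 face has no control of its own among the samples, so its share was set only against controls of other libraries. The limb histone inputs overlapped 6 regions (the H3K27ac input) and 20 regions (the other input), and the forebrain input overlapped 0 of 5480 (upper limit 0.0673%). The limb SMARCA4 control, like those of forebrain, heart and neural tube, was not analysed here.

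Against the comparison sets, the distal acetylated regions were intermediate in most lists. SMARCA4 limb was on 2.39% of them, against 29.7% of acetylated H3K4me3 regions and 0.507% (0.438 to 0.585%) of unacetylated H3K4me1 regions. SMARCA4 face was on 31.4%, against 88.9% and 20.1% (19.7 to 20.5%). SMARCC2 face was on 15.1%, against 30.4% and 6.69%, SMARCA4 forebrain on 4.91%, against 35.5% and 1.65%, and SMARCA4 midbrain on 1.77%, against 4.56% and 0.699%. SMARCA4 heart was on 10.1%, against 28.2% and 6.64%. For these 6 lists the intervals of distal acetylated and unacetylated H3K4me1 regions did not overlap. The EP300 face control moved the same way, at 11.1% against 67.4% and 8.73%, and so did the SMARCA4 midbrain control, at 6.79% against 68.0% and 3.87%. The part of that background in the FLAG shares was not tested. SMARCA4 ESC differed little, at 2.55% (2.15 to 3.01%) against 2.42% (2.27 to 2.58%) of unacetylated H3K4me1 regions. SMARCC2 hindbrain was on 0.182%, below both 0.538% and 0.219%. EP300 ESC was on 2.32% (1.94 to 2.75%), against 2.10% (1.95 to 2.25%), and EP300 face on 0.256% (0.140 to 0.428%), against 0.221% (0.176 to 0.275%).

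**Figure D1:**
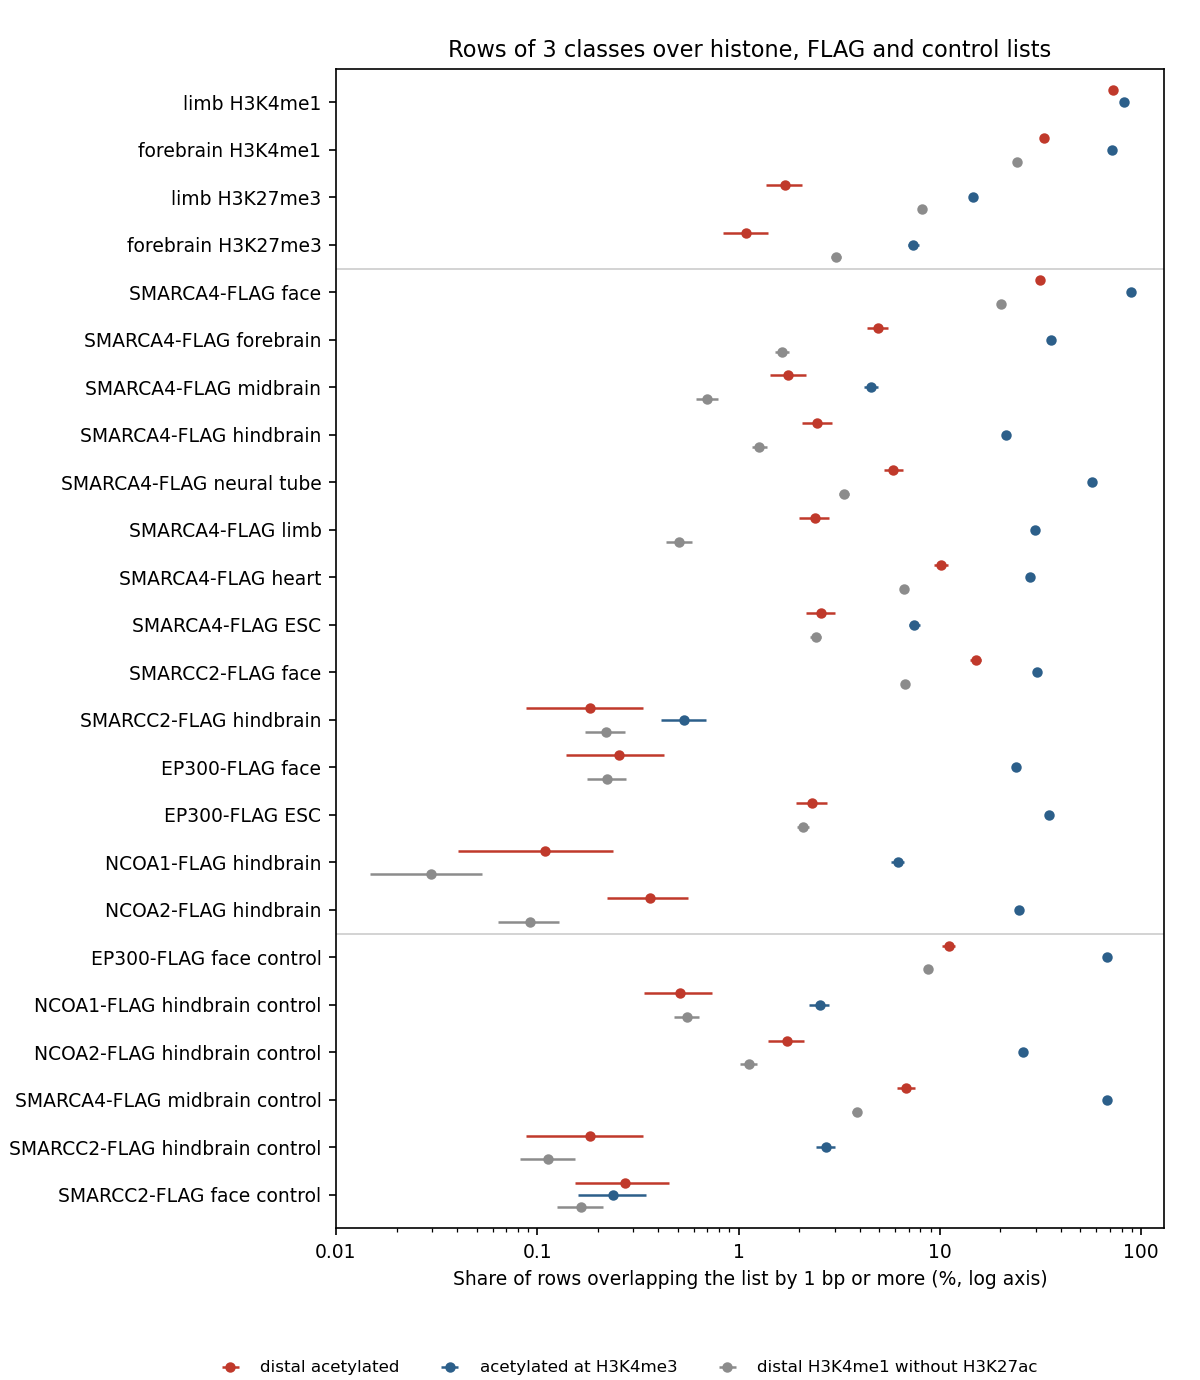
The share of regions that overlap each list by 1 bp or more (x axis, percent, log scale) is drawn for distal acetylated regions (red), acetylated regions at H3K4me3 (blue) and distal H3K4me1 regions without H3K27ac (grey), with exact 95% binomial intervals. In SMARCA4 limb the 3 points stand at 2.39%, 29.7% and 0.507%. The grey point of limb H3K4me1, at 100% by construction, is left out.

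Lists differ in length, so the overlap was also counted per peak. The limb SMARCA4 list has 5251 peaks, of which 522 had no H3K4me3, and 111 of those (21.3%, 17.8 to 25.03%) lay on distal acetylated regions. The shares were 19.5% for forebrain, 15.9% for midbrain, 9.71% for face, 7.49% for hindbrain, 6.55% for neural tube, 6.47% for heart and 2.71% for ESC. SMARCC2 gave 16.7% in face and 0.461% in hindbrain. Counted per distal peak, the limb list therefore ranked first among the SMARCA4 lists. Its interval overlapped that of forebrain (17.2 to 22.0%) and that of midbrain (13.1 to 19.0%) and not that of face (9.27 to 10.1%). The lists of limb, midbrain and forebrain also have the fewest distal peaks (522, 605 and 1100), against 17671 in face. Whether the number of peaks in a list bears on this order was not tested. Distal limb peaks are wide (median 2050 bp), and those of midbrain (548 bp) and face (326 bp) are narrower. With each peak set to 1 kb the shares were 19.4% for limb, 16.4% for forebrain, 17% for midbrain and 10.3% for face. The EP300 face control gave 3.67% per distal peak and the SMARCA4 midbrain control 4.83%.

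Regions in the limb SMARCA4 list differed from the rest of the distal acetylated regions in several respects, some of them shared with other SMARCA4 lists. Their median width was 1288 bp, with 947 bp (ESC) to 1171 bp (forebrain) in the other SMARCA4 lists. Their median rank was 8878, with 10878 (hindbrain) to 12399 (ESC) in the other SMARCA4 lists. In the better ranked 50% of the H3K27ac list were 62 of the 131 (47.3%), against 397 of the 5349 others (7.42%). They were within 1 kb of a gene point in 16 of 131 cases (12.2%), against 3.03% of the others, and over limb H3K27me3 in 10 (7.63%), against 1.55%. H3K4me1 was in both tissues at 48.1%, against 28.8%, and in neither at 6.87%, against 24.4%. A further SMARCA4 list held 103 of them (78.6%), against 40.01% of the others held by any SMARCA4 list. In a control or input list were 39 of them (29.8%), against 16.9% of all distal acetylated regions. For the other SMARCA4 lists that share was 18.8% (heart) to 32.6% (hindbrain). Without the regions within 1 kb of a gene point, 115 of 5302 (2.17%, 1.79 to 2.60%) were in the limb list.

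Most regions were in no SMARCA4 list, and most of the others were in only 1. Within each SMARCA4 list except face, most regions were also in a further SMARCA4 list. Of 5480, 3209 (58.6%) were in no SMARCA4 list, 1516 in 1, 520 in 2, 160 in 3, 50 in 4, 17 in 5, 6 in 6 and 2 in 7, and none was in all 8. A further SMARCA4 list held 61.4% of the regions in the heart list, 80.7% of those in forebrain, 85.6% in midbrain and 89.6% in hindbrain, against 38.4% of those in face. Face held 1723 of the regions and heart, the next, 554, so these shares depend on how many regions each list holds. Of the 825 regions in SMARCC2 face, 511 were also in SMARCA4 face (61.9% of the SMARCC2 face regions, 29.7% of the SMARCA4 face regions). Of the 554 in SMARCA4 heart, 299 were also in SMARCA4 face (54.0%, and 17.4% of the face regions). In SMARCA4 face 797 of 1723 regions (46.3%) were in no other FLAG list, in SMARCA4 heart 152 (27.4%) and in SMARCA4 limb 22 (16.8%).

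On these limb regions the SMARCA4 lists, brain or not, had higher shares with H3K4me1 in both tissues than in limb alone. SMARCA4 midbrain held 81 of 1605 regions with H3K4me1 in both tissues (5.05%, 4.03 to 6.23%), against 4 of 2355 with H3K4me1 in limb alone (0.170%, 0.0463 to 0.434%). SMARCA4 forebrain held 11.3% (9.77 to 12.9%), against 1.74% (1.25 to 2.35%), hindbrain 5.67%, against 1.27%, and neural tube 11.9%, against 3.10%. Face SMARCA4 held 54.0%, against 29.1%, SMARCC2 face 30.7%, against 11.4%, heart SMARCA4 18.9%, against 7.86%, and limb SMARCA4 3.93% (3.03 to 4.99%), against 2.08% (1.54 to 2.74%). ESC SMARCA4 held 4.92% (3.92 to 6.10%), against 1.61% (1.14 to 2.21%). The EP300 face control held 12.96%, against 9.30%, and the SMARCA4 midbrain control 7.85%, against 5.65%. The part of that background in the difference was not tested. Regions with H3K4me1 in neither tissue had 8.44% in SMARCA4 face and 2.21% in SMARCC2 face, but 11.3% in the EP300 face control. On those regions the EP300 face control thus exceeded every FLAG list.

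Rank and width differ between these sets, so the comparison was repeated within 5 bins of the distal regions by rank. In the best bin SMARCA4 midbrain held 35 of 507 regions with H3K4me1 in both tissues (6.90%), against 2 of 462 with H3K4me1 in limb alone (0.433%). In the last bin it held 7 of 160 (4.38%), against 0 of 428. SMARCA4 face held 74.0%, against 49.1%, in the best bin and 40.6%, against 17.5%, in the last. SMARCA4 forebrain and SMARCC2 face were higher with H3K4me1 in both tissues in each of the 5 bins, and so was the EP300 face control, at 17.8%, against 11.5%, in the best bin, 9.13%, against 9.09%, in bin 4 and 14.4%, against 7.01%, in the last. SMARCA4 limb held 9.07%, against 5.19%, in the best bin, and 0 of 160, against 6 of 428, in the last.

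**Figure D2:**
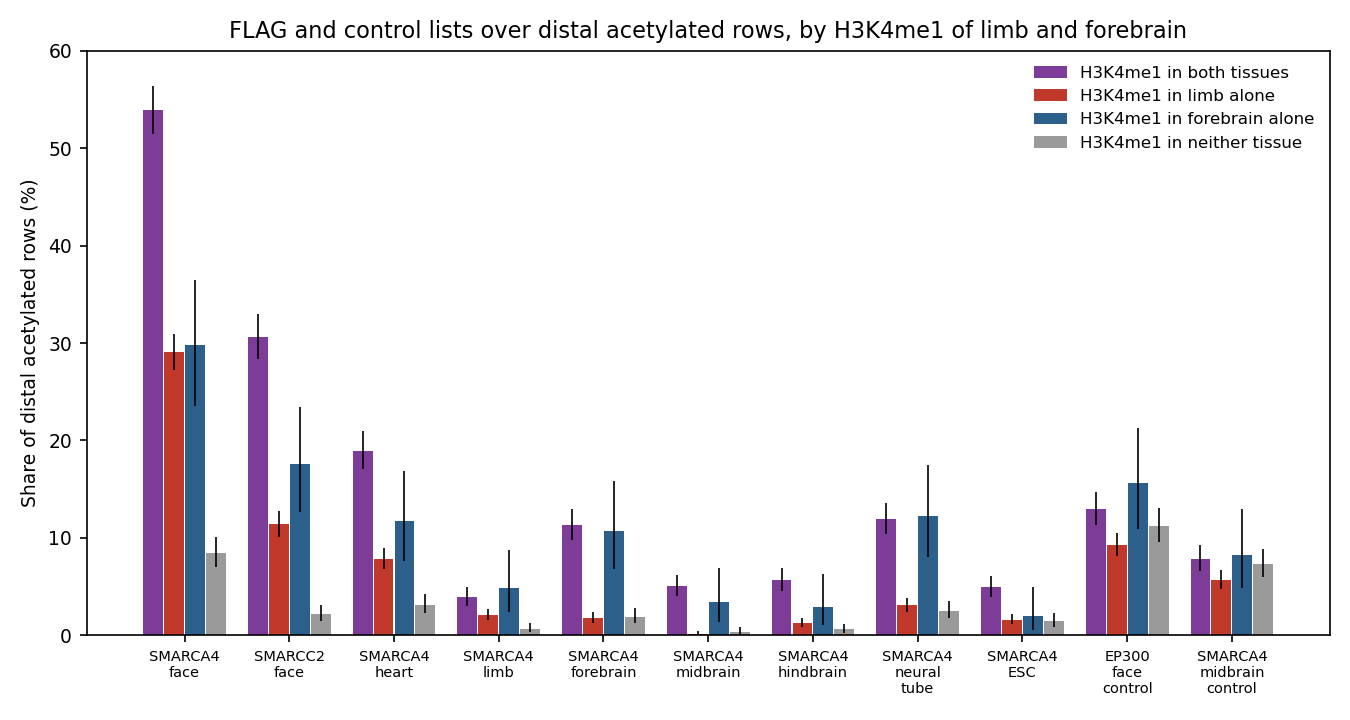
Bars give the share of distal acetylated regions (y axis, percent) in 9 FLAG lists and 2 control lists, for regions with H3K4me1 in both tissues (1605), limb alone (2355), forebrain alone (205) and neither (1315). Lines are exact 95% binomial intervals. In SMARCA4 midbrain the first pair of bars stands at 5.05% and 0.170%, and in its control at 7.85% and 5.65%.

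H3K4me1, the face SMARCA4 and SMARCC2 lists and a control list all declined along the authors' rank. From the best to the last of 5 rank bins of the distal regions, limb H3K4me1 went through 88.4%, 81.3%, 74.8%, 63.1% and 53.6%. SMARCA4 face went through 59.5%, 35.7%, 25.6%, 20.9% and 15.5%, and SMARCC2 face through 26.9%, 18.3%, 13.05%, 10.2% and 6.75%. SMARCA4 limb was at 7.94% in the best bin and at 1.82%, 1.19%, 0.365% and 0.639% in the others. The EP300 face control went through 16.0%, 10.8%, 10.2%, 9.67% and 8.76%. The median width fell along the same bins, at 1342, 879.5, 765, 712 and 576.5 bp. Limb H3K27me3 (2.46%, 1.46%, 1.46%, 2.10% and 1.00%) and SMARCA4 ESC (4.65%, 2.28%, 2.55%, 2.10% and 1.19%) did not fall at every step. With a fixed window of 1 kb the best and the last bin stood at 56.2% and 17.2% for SMARCA4 face and at 87.9% and 55.1% for limb H3K4me1.

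**Figure D3:**
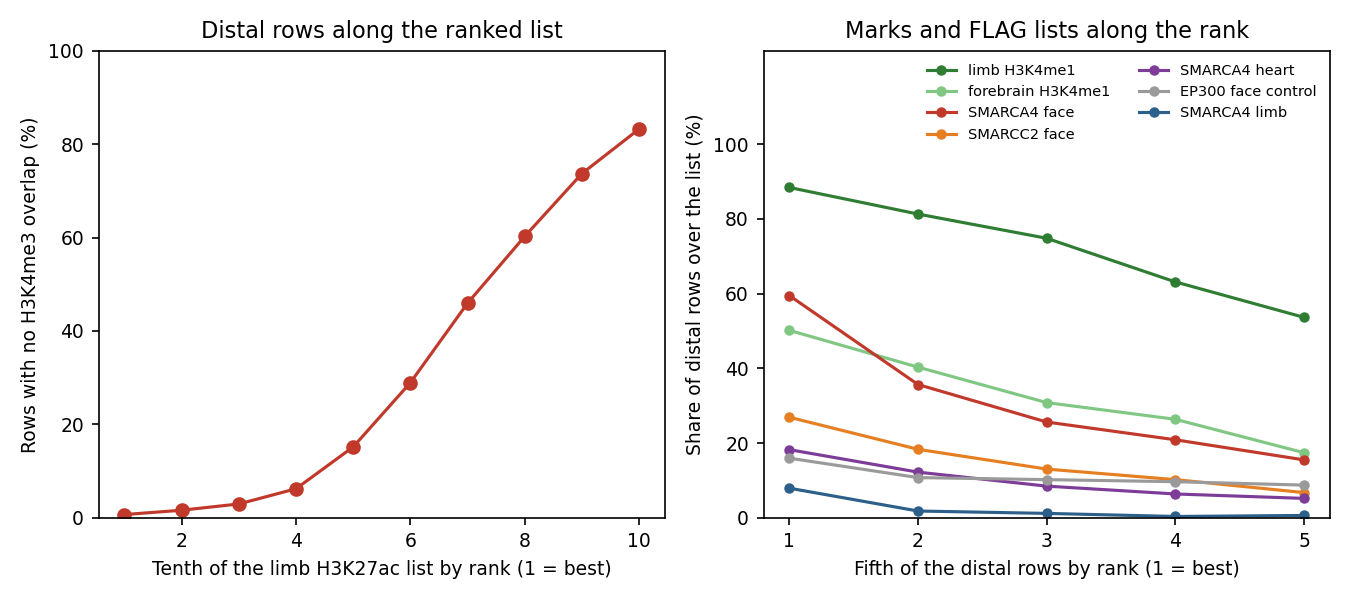
Left, the share of limb H3K27ac regions with no H3K4me3 overlap (y axis, percent) in each of 10 bins of the list by rank, from 0.699% in the best to 83.2% in the last. Right, the share of distal acetylated regions over 7 lists (y axis, percent) in each of 5 bins of those regions by rank. The limb H3K4me1 line runs from 88.4% to 53.6% and the SMARCA4 face line from 59.5% to 15.5%.

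Most distal acetylated regions lay over 10 kb from a gene point. The median distance was 28132.5 bp (quartiles 11365 and 61931 bp), against 308 bp for acetylated H3K4me3 regions and 36630.5 bp for unacetylated H3K4me1 regions. The rule removed regions at H3K4me3, and 73.5% of gene points had H3K4me3 within 1 kb. A larger distance than in acetylated H3K4me3 regions therefore follows from the rule. Of the distal acetylated regions 18.9% were at 1 to 10 kb, 46.6% at 10 to 50 kb, 17.7% at 50 to 100 kb and 13.3% (12.4 to 14.2%) at 100 to 500 kb, against 20.4% (19.99 to 20.8%) of unacetylated H3K4me1 regions in that last bin. Only 16 regions lay over 500 kb away. SMARCA4 limb was on 8.99% of the regions within 1 kb of a gene point, on 2.90% at 1 to 10 kb and on 1.72% at 10 to 50 kb. SMARCA4 face was on 52.8%, 27.2% and 31.8% in the same bins, and limb H3K4me1 on 73.0%, 68.6% and 71.4%.

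**Figure D4:**
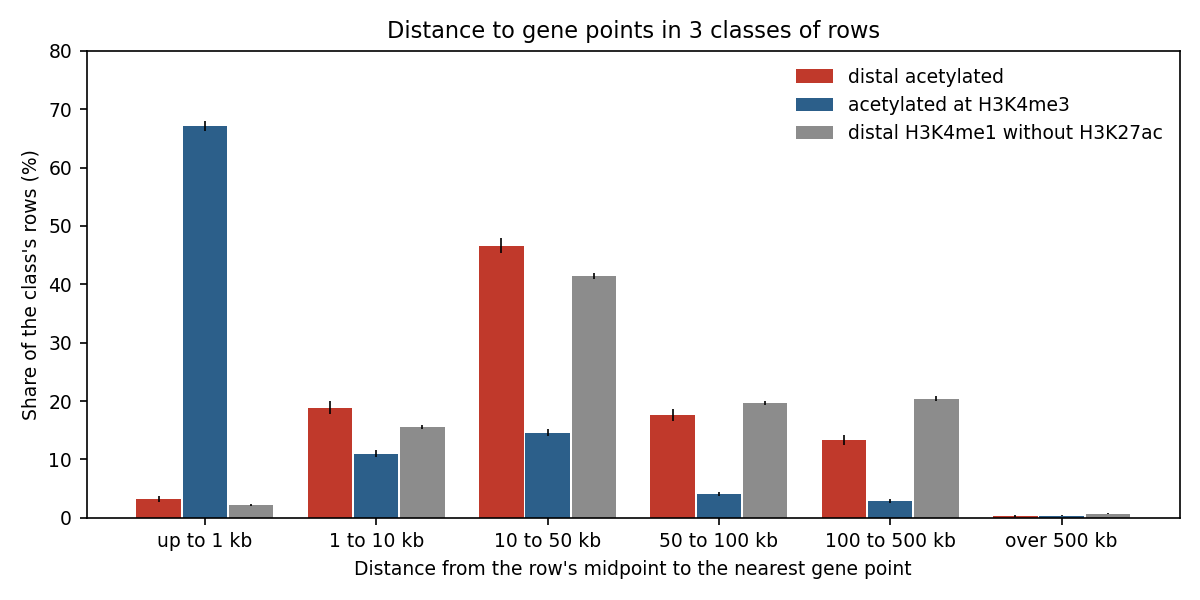
Bars give the share of each class (y axis, percent) by distance from the region's midpoint to the nearest gene point, with exact 95% binomial intervals. Distal acetylated regions (red) peak at 10 to 50 kb with 46.6%, acetylated regions at H3K4me3 (blue) have 67.1% within 1 kb, and unacetylated H3K4me1 regions (grey) have 41.5% at 10 to 50 kb. The contrast of red with blue follows from the rule on H3K4me3.

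The rule on H3K4me3 also left out acetylated regions far from any gene point. Of the acetylated H3K4me3 regions, 2566 were over 10 kb from a gene point. A point was found for 80.8% of transcripts, so some of these regions may lie at the start of a gene without one. SMARCA4 limb was on 1.99% (1.59 to 2.46%) of the 4267 distal acetylated regions over 10 kb from a gene point, against 14.7% (13.4 to 16.2%) of those 2566. SMARCA4 face was on 31.6%, against 78.2%, SMARCC2 face on 15.6%, against 36.7%, and limb H3K4me1 on 73.1%, against 87.4%. Limb H3K27me3 was on 1.29%, against 12.4%. Median widths were 787 bp, against 1211 bp, and median ranks 13760, against 9024.5.

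Around genes, 1578 of 16001 gene points (9.86%) had 3 or more distal acetylated regions within 100 kb, 414 (2.59%) had 5 or more, and 9188 (57.4%) had none. Neighbouring genes share regions, so these are not separate counts. Of the regions, 4735 (86.4%) were within 100 kb of a gene point. Joined across gaps of up to 12.5 kb, the regions formed 4564 groups, of which 665 held 2 or more regions and 21 held 5 or more. The 665 groups took in 1581 regions (28.9%).

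Rxra, a nuclear receptor that binds retinoids and pairs with retinoic acid and thyroid hormone receptors, had the group with most regions, 10 in 65.7 kb (chr2:27554661-27620344). It had 13 regions within 100 kb, of which 10 lay on 1 side of the point. H3K4me1 was in both tissues at 7 of them, in limb alone at 4, in forebrain alone at 1 and in neither at 1. SMARCA4 face was on 5 and SMARCC2 face on 2, and no region there was in the limb SMARCA4 list. The widest was chr2:27575517-27578268, of 2752 bp and rank 11674, which was in no FLAG list.

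Among the 20 loci with most regions, the first was Cpa5, a carboxypeptidase gene, with 16 regions within 100 kb, and its neighbour Mest, an imprinted gene active in mesoderm, had 10. AK013293, a transcript that the files name only by this ID, had 15, of which 12 had H3K4me1 in limb alone and 1 was in the limb SMARCA4 list. Tns1, which encodes the focal adhesion protein tensin 1, had 13 and A930008G19Rik 12. AK190704 had 11, with 10 at its neighbour Gdf7, a ligand of the BMP family. AK016284 had 11. AK082720 had 11, with 8 at the imprinted H19 and 4 at Igf2, the insulin-like growth factor gene beside it. Anks1, AK037308 and Dysf, the gene of the membrane repair protein dysferlin, had 10 each. Myh9, a non-muscle myosin heavy chain gene, Actrt2, AK213563, 4931406H21Rik, AK084679, Zfp36l2, Jazf1 and Ppil1 had 9 each. AK213563 has Prdm16 as a neighbour (6 regions), 4931406H21Rik has Zmiz1 (9 regions) and AK084679 has Matn3 and Sdc1, a cartilage matrix gene and a syndecan gene, with 5 and 4. Cpa5, AK190704, AK082720 and 4931406H21Rik had 6, 3, 10 and 7 neighbours with 3 or more regions that were passed over for lying within 200 kb. The 20 loci together held 215 regions (3.92%), of which 77.7% had limb H3K4me1, 32.1% were in SMARCA4 face and 2.79% in SMARCA4 limb, against 72.3%, 31.4% and 2.39% of all distal acetylated regions.

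None of these 20 loci is named for a gene of the limb lists. In the list of limb patterning transcription factors 5 of 29 placed genes (17.2%) had 3 or more regions, against 9.86% of all gene points, 11 had none, against 57.4% of all gene points (9188 of 16001), and the median was 1, against 0. Tbx4 and Tbx2, adjacent T-box genes of hindlimb and of limb margins, had 4 each, of which 3 were the same regions. Alx4, a paired-type homeobox gene of the anterior limb, and Twist2, a bHLH gene of mesenchyme, had 3 each, as did Prrx2. Tbx5, Gli3, Meis1, Msx2, Twist1 and Shox2 were among the 11 with none. Of those 11 genes, 9 had 3 or more unacetylated H3K4me1 regions within 100 kb, with 12 at Gli3, 11 at Meis1 and 9 at Tbx5. Over all gene points with no distal acetylated region, 4254 of 9188 had 3 or more.

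In the list of limb signalling genes 4 of 24 placed genes (16.7%) had 3 or more regions, against 9.86% of all gene points. In that list 13 of 24 had none, near the 57.4% of all gene points. Bmp7, a BMP ligand of the ridge and mesenchyme, had 6 regions at 9.78 to 96.2 kb. Of these, 4 had H3K4me1 in both tissues, SMARCA4 face was on 2 and SMARCA4 heart on 1, and no region was in the limb SMARCA4 list. Wnt5a, a WNT ligand that drives limb outgrowth, had 5, all on the same side at 35.8 to 70.4 kb. H3K4me1 was in limb alone at 3 of the Wnt5a regions and in neither tissue at the other two, and 1 of the 5 was in a FLAG list (SMARCA4 face). Fgfr2, the receptor of FGF10 in limb ectoderm, and Spry1, a feedback inhibitor of FGF signalling, had 3 each, and all 3 at Fgfr2 were in a face list of SMARCA4 or SMARCC2. Shh, Grem1, Bmp4, Fgf8, Ptch1, Dusp6 and Aldh1a2 were among the 13 with none. Fgf10, the mesenchymal FGF that starts limb outgrowth, had 1 region, chr13:119520970-119521434, of 465 bp and rank 16786, with limb H3K4me1.

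In the other lists the counts ran from none to 5 regions a gene. Over all gene points 9.86% had 3 or more regions and 57.4% had none. The lists are small, and no difference from these shares was tested. None of 4 placed limb HOX genes had 3 or more, with 2 regions each at Hoxc11 and Hoxd9 and 1 region that Hoxa10 and Hoxa13 share. Among ridge and ectoderm genes 0 of 5 placed genes had 3 or more, with 2 at Grhl3 and 1 at Epcam and Sp6. Among cartilage and connective tissue genes 0 of 14 had 3 or more and 7 had 1 each (Sox5, Col2a1, Acan, Gdf5, Nog, Scx and Col1a2), while Sox9 and Runx2 had none. Among muscle precursor genes 8 of 9 had none and Myog had 2. Among forebrain genes 0 of 20 had 3 or more, 16 had none, and Emx1, Pax6, Dlx1 and Dlx2 had 1 each, which Dlx1 and Dlx2 share. Endothelial genes had 2 of 11 placed with 3 or more (18.2%, Pecam1 with 4 and Eng with 3, then Cdh5 and Sox18 with 2 each). Of 4 placed erythroid genes Tfrc had 4 and the others none. Cardiac muscle genes had 1 of 8 (Myl7 with 4, then Tnnt2 with 2 and Gata4 with 1), pluripotency genes 0 of 8 (Pou5f1 with 2, Esrrb and Klf4 with 1), and housekeeping genes 1 of 11 (Actb with 5, then Ppia with 2). Genes of the lists without a point, such as Meis2, Hoxa11, Hoxd13, Gli1, Trp63 and Krt14, were not placed.

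Cell type markers were read the same way, as a description and not as a check of the label. Of all gene points 57.4% had no region, so a marker without one is common. Among limb mesenchyme markers Tbx4 had 4 regions, Msx1 2 and Prrx1 1, and Twist1 and Tbx5 had none. The neural markers Emx2, Neurog2 and Sox1 had none, and neither did the muscle precursor markers Pax3, Myf5 and Myod1. Endothelial markers had 4 at Pecam1 and 2 at Cdh5, with none at Kdr and Tek, and no erythroid marker was placed. Nearest to a start was the Pecam1 region at 20 bp. Enhancer activity in limb was not measured in these lists, so the regions are named here by the rule and not as limb enhancers.

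**Figure D5:**
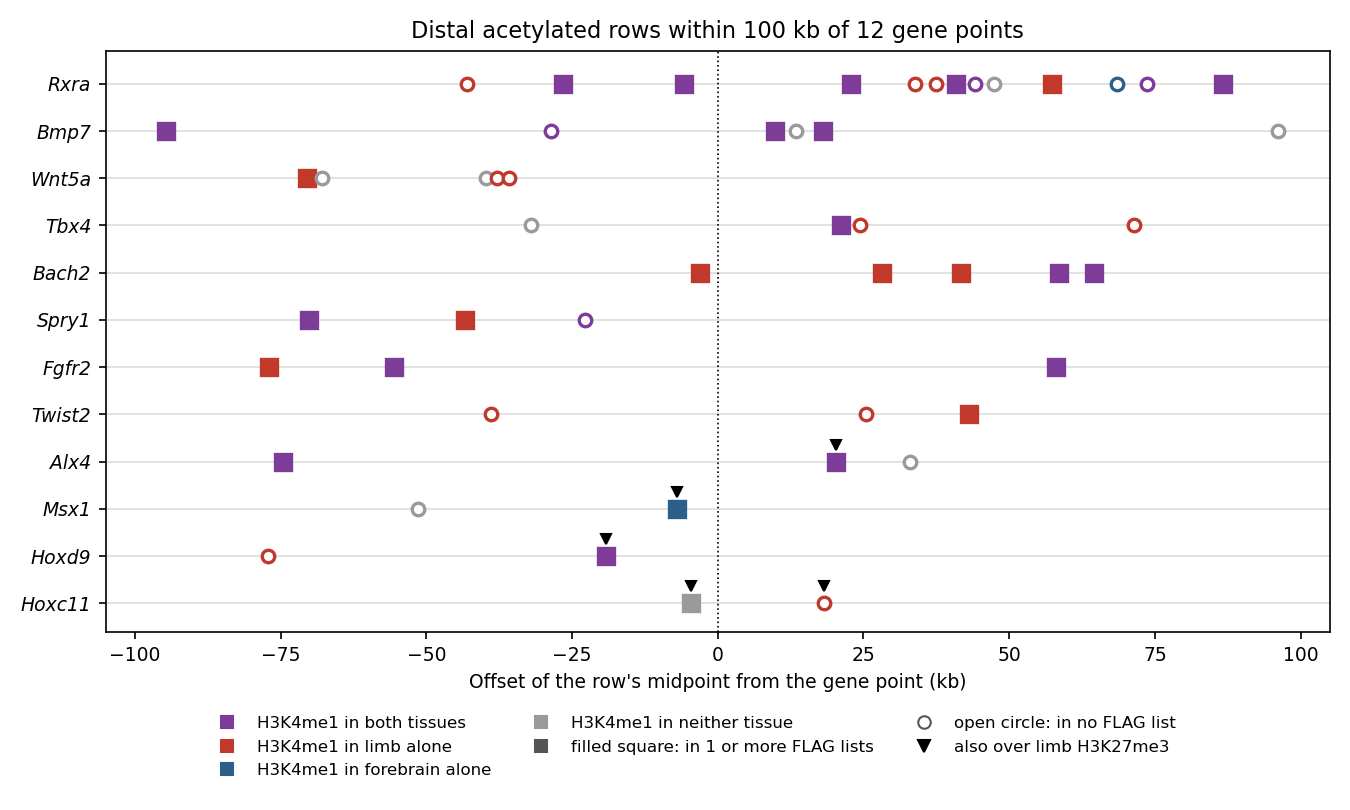
Each symbol is a distal acetylated region within 100 kb of 1 of 12 gene points, placed by the offset of its midpoint (x axis, kb). Colour gives the tissues with H3K4me1, a filled square a region in 1 or more FLAG lists, and a triangle limb H3K27me3. The genes were chosen after their values were seen. All 5 Wnt5a regions lie on 1 side, and the triangles stand at Alx4, Msx1, Hoxd9 and Hoxc11.

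The regions of best rank differed from the bulk. Rank 14 was chr2:91769990-91774747 at 71 bp from Mdk, the gene of the growth factor midkine, and it was in 7 FLAG lists. After Pcbp1 at rank 18 came regions near AK172090, Alad (a haem synthesis enzyme), Frat2, AF357376, Hoxd9, Angel2, Sertad1 and Rbm15, at ranks 537, 582, 709, 847, 900, 937, 994 and 1048. Of these 10, the regions near Alad and Hoxd9 were not within 1 kb of a gene point, though several HOXD genes have no point. Each of the 10 was in at least 1 control or input list, against 928 (16.9%) of all 5480 distal acetylated regions. The 10 widest ran from 5733 bp near Htra3 to 13642 bp near Hoxd9. After Hoxd9 they lay near AK086911 (8527 bp), AK013293 (7780 bp), BC034090 (7312 bp), 4931406H21Rik (6318 bp), Dysf (6190 bp), Tns4 (6063 bp), Capzb (6023 bp, the gene of an actin-capping protein) and Jund1 (5983 bp).

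Of the 10 regions in the most FLAG lists, those near Bach2 and Jund1 were in 8 and the others in 7. The Bach2 region, chr4:32389249-32391611, lay 64.5 kb from the point of this bZIP repressor gene, with a rank of 3907 and H3K4me1 in both tissues. It was in every SMARCA4 list but ESC, and in SMARCC2 face. The Jund1 region, chr8:73219023-73225005, lay 0.834 kb from the gene of this AP-1 factor. The others lay near Mdk, Pcbp1, AF357376, Hes6, Tacstd1 (the files' name for Epcam, at 22.3 kb), Rassf1, Flvcr1 and AK039829. Of the 10 regions 8 were in a control or input list, against 16.9% of all distal acetylated regions. The exceptions were those near Tacstd1 and AK039829.

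Peaks of the FLAG tables on distal acetylated regions had higher conservation scores in the authors' deposited tables than other distal peaks of the same list. In the authors' deposited table of SMARCA4 heart the median score was 339 at 555 peaks on the regions, against 296 at 8018 other distal peaks. In the authors' deposited table of SMARCC2 face it was 353 at 764 peaks, against 315 at 3816. In the authors' deposited table of SMARCA4 ESC it was 344 at 139 peaks, against 262 at 4984, and in that of SMARCA4 hindbrain 394 at 133, against 323 at 1642. A score of 0 was given to 21.6% of the heart peaks on the regions, against 31.5% of the others, in the authors' deposited table. The authors' deposited table also gave these heart peaks more tags, with a median of 44, against 33, while their median fold enrichment was 5.13, against 5.30. The medians lie within the quartiles of the other set in each case, and whether the higher tag count bears on the score was not tested.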

How the data were processed

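Chromatin immunoprecipitation with sequencing was read from 30 deposited peak lists. The submitters' processing notes name BWA and the build mm9, and the peak caller is not given in the sources used here. The authors deposited 14 lists with positions, and 16 tables that also hold a count of tags, a read depth signal, a fold ratio, a score from the p-value, a conservation score and the distance to the nearest gene, per the file headers. Some deposited tables add a percent false discovery rate, per the file headers. Library depth is unknown, so precision is set by the number of regions.

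From these, regions were joined by an overlap of 1 bp or more, shares got exact 95% intervals, and gene points were taken where at least 2 peaks of the tables agreed on the position. A point was found for 18934 of 23432 transcripts (80.8%). Python 3.11.15, numpy 2.4.6, scipy 1.17.1 and matplotlib 3.10.9 were used, and the overlap code was tested on simulated data. No test was run, since each list is 1 library. The 20 loci named are those with most regions within 100 kb, at least 200 kb apart. In each gene list up to 4 genes with most regions were named, and the 10 regions of best rank, of greatest width and in the most FLAG lists. Other genes were named after their values were seen. 1 of the 20 loci and 1 marker gene are not reported here. The members and gene lists were chosen with earlier results of these data known. Alternatives were another rank cut, overlap, H3K4me3 rule, gene point rule and window, and the removal of control regions. 2 more, on gene points and on regions within 1 kb of one, were chosen after seeing the data.

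4 SMARCA4 controls (limb, neural tube, heart, forebrain) were not analysed here. The labels hold oddities: the SMARCA4 hindbrain sample carries the tissue tag forebrain, every FLAG sample carries the SMARCA4 genotype, and the protocol of the histone samples names heart and hindbrain. Promoters are RefSeq GRCm38.p6 and were joined to mm9 regions by gene symbol alone.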

Additional observations from a re-analysis of the deposited data

How the results depend on the processing

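Of 62 alternative values 20 moved. Only the size of a change was checked, so a reversal of direction was not looked for. The other 42 were shares or distances within the interval or spread of the value reported, or counts within 1.5 times it, such as 4552 regions and 1140 genes without regions in a control or input list. The rank cut moved most. In the better ranked 50% of the H3K27ac list 459 regions were distal, with limb H3K4me1 on 87.2%, forebrain H3K4me1 on 53.6%, limb H3K27me3 on 2.61%, forebrain H3K27me3 on 2.40%, SMARCA4 limb on 13.5% and SMARCA4 face on 65.6% of them. Their median distance to a gene point was 23.0 kb, and 17 genes had 3 or more regions. Counting a region only where 50% or more of it was covered gave 70.2% for limb H3K4me1, 29.6% for forebrain H3K4me1, 1.30% for limb H3K27me3, 0.420% for forebrain H3K27me3 and 15.04% for SMARCA4 face. With H3K4me3 of limb alone as the rule, forebrain H3K4me1 was on 34.5%. Without regions in a control or input list, SMARCA4 face was on 27.8% and the median distance was 29.4 kb. The median distance was 29.5 kb without regions within 1 kb of a gene point, an alternative chosen after seeing the data, and 29.99 kb with points agreed on by at least 3 peaks. A window of 50 kb left 525 genes with 3 or more regions. For these 20 values the cause was not tested beyond the change of setting itself.

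No paired analysis was possible because each mark, factor and tissue has 1 library. Peak lists called separately differ in length and width, depth is unknown, and a share of 0 says only that no listed peak overlapped.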

Other observations

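Distal acetylated regions were unevenly spread over chromosomes. On the X chromosome 41 of 381 limb H3K27ac regions (10.8%) were distal, against 24.6% on chromosome 19 and 39.8% on chromosome 12, the lowest and highest among the autosomes. Tissue was pooled from male and female embryos. Of the 93 regions over limb H3K27me3, 4 had AK048032 as the nearest gene, 3 had Foxl1, a forkhead factor gene, and 3 had Pja1, a ubiquitin ligase gene.

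The few regions in the EP300 face, NCOA1 and NCOA2 lists mostly lay near gene points. The points were worked out from peaks of deposited tables that include these lists, so the distances are not independent of them. The 14 regions in EP300 face had a median distance to a gene point of 563 bp, the 20 in NCOA2 268 bp and the 6 in NCOA1 663.5 bp, against 28466.5 bp for the 2954 regions in no FLAG list. Also in a control or input list were 9 of those in EP300 face, 16 in NCOA2 and 4 in NCOA1. The share over all distal acetylated regions was 16.9%.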
